A study of Mus musculus with 6 samples.

Results

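The ephrin ligands are the 8 genes Efna1, Efna2, Efna3, Efna4, Efna5, Efnb1, Efnb2 and Efnb3, chosen by gene symbol among the 21667 named genes of the RNA-seq tables. All 8 were listed in every mouse. The samples are the somatosensory cortex of 3 control mice (Mef2c fl/fl) and 3 Mef2c cKO mice (Mef2c fl/fl; Emx1-Cre), all adult males of a mixed strain (SVeV-129; C57BL/6J). Both genotypes carry the floxed Mef2c alleles. The cKO mice in addition express Cre from the Emx1 locus, which is active in most excitatory neurons of the forebrain and in some glia, so cells outside this lineage, such as inhibitory neurons, keep Mef2c. Replicate 1 of each genotype was 14 weeks old and replicates 2 and 3 were 12 weeks old. Each mouse gave 1 library. The recovered totals, of reads counted on genes, ran from 19326365 (Mef2c cKO replicate 2) to 54128334 (Mef2c cKO replicate 3).

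Ephrins are ligands held on the cell surface, and their receptors, the Eph receptor tyrosine kinases, sit on the membrane of the neighboring cell. Ephrin-A proteins are anchored by a lipid and mostly bind EphA receptors, whereas ephrin-B proteins span the membrane and mostly bind EphB receptors, with EphA4 binding both kinds. Signals run forward into the receptor cell and in reverse into the ligand cell. In the cortex this system is known for guiding axons, for the mapping of thalamic input and for shaping dendritic spines and synapses.

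Before the ligands, the genes of the allele design were examined. Levels are given as CPM, the reads per 1000000 reads of the recovered total of a mouse. Reads on the whole Mef2c gene were 800, 772 and 800 CPM in the controls and 1231, 1276 and 1468 CPM in the cKO mice. This was a rise of 0.74 ± 0.075 on the log2 scale (standard error, here and for every fold change) with an adjusted p of 0.000173 by limma. Reads were counted over the whole gene, so the floxed part is not separated from the exons that remain, and this value does not test the deletion. Emx1, the gene that holds Cre, read 16.5, 20.3 and 18.8 CPM in the controls and 5.71, 4.97 and 5.10 CPM in the cKO mice. Emx1 fell by 1.79 ± 0.11 on the log2 scale (adjusted p = 1.21e-05), with every cKO mouse below every control. The pyramidal neuron marker Slc17a7 stood at 1191 ± 48.3 CPM in controls and 1241 ± 47.2 CPM in cKO mice (SD, n = 3 each). The libraries are of whole tissue, in which fewer cells of a type and less RNA per cell cannot be told apart.

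To ask which ephrins differ between the genotypes, CPM values were compared with limma over all genes that passed a filter on low values. A gene was called when its adjusted p was under 0.05 and its absolute log2 fold change above 0.3. Of the 8 ligands, 7 passed the filter and were tested, and 4 of these were called. Efna5 fell, and Efna3, Efnb2 and Efnb3 rose. Over all 14622 tested genes, 13.7% were called, 5.88% as increased and 7.77% as decreased. The genotypes did not overlap in 5 of the 7 tested ligands, against 33.8% of all tested genes. The median log2 fold change of the 7 ligands was 0.34, beside 0.0077 over all tested genes. The members were named with results of these data known, so these counts are a description.

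**Figure D1:**
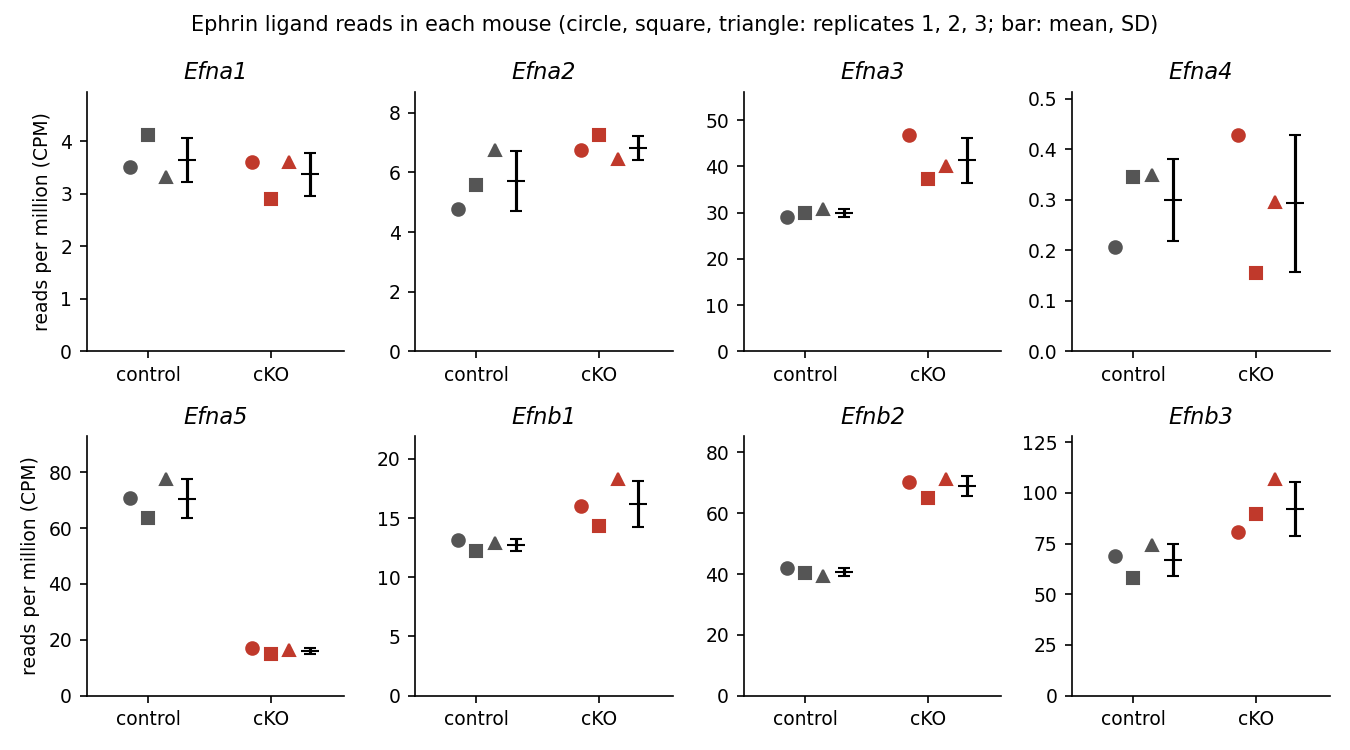
CPM (vertical axis, from 0) of the 8 ephrin ligands in 3 control mice (grey) and 3 Mef2c cKO mice (red), with the symbol giving the replicate number and the black bar the mean and SD. Efna5 lies between 63.6 and 77.4 CPM in controls and between 14.7 and 17.0 CPM in cKO mice, while Efna3, Efnb1, Efnb2 and Efnb3 lie higher in every cKO mouse than in any control.

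Efna5 encodes ephrin-A5, a guidance cue for retinal and thalamic axons that is also made in the cortex. It lies on chromosome 17 (mm9, chr17:62953533-63230666, minus strand). The controls had 70.7, 63.6 and 77.4 CPM of Efna5, from 2406, 3142 and 3990 reads. The cKO mice had 17.0, 14.7 and 16.4 CPM of this gene, from 558, 285 and 886 reads. Every cKO mouse was far below every control, and the spread within either genotype was small beside the gap. The fold change of Efna5 was -2.13 ± 0.091 on the log2 scale (95% interval -2.33 to -1.92, adjusted p = 1.91e-06), which is 4.40-fold lower in the means. Among the 14622 tested genes, 54 had a more negative fold change. The difference was -2.05 between the 14-week mice (1 per genotype) and -2.17 between the means of the 12-week mice, so it was of like size at both ages.

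The 5 markers of layer 4 of the cortex fell as well. Summed, Rorb, Scnn1a, Rspo1, Whrn and Endou gave 112 to 123 CPM in controls and 29.5 to 34.8 CPM in cKO mice, and 5 of 5 were called as decreased. None of the 5 was at 0 in any mouse. The 8 upper layer markers summed to 650 to 709 CPM in controls and 442 to 487 CPM in cKO mice. Of these 8, 5 were called as decreased and 2 as increased. Whether the lower Efna5 goes with fewer reads from cells of layer 4 or of the upper layers was not tested.

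Efna3, Efna1 and Efna4 lie side by side on chromosome 3 within 66296 bases. Efna3 encodes ephrin-A3, a ligand of EphA4 that is known from astrocyte processes around synapses, and sits at chr3:89117821-89126887 on the minus strand. It read 29.2, 29.9 and 30.8 CPM in the controls and 46.8, 37.2 and 40.1 CPM in the cKO mice. The controls were nearly equal, and all 3 cKO mice were higher, most of all the 14-week one. Efna3 rose by 0.46 ± 0.089 on the log2 scale (95% interval 0.26 to 0.66, adjusted p = 0.00701). The difference in Efna3 was 0.68 between the 14-week mice and 0.35 between the 12-week mice.

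Efna1, at chr3:89075655-89085064 on the minus strand, encodes ephrin-A1, first known as a protein induced in the endothelium. Its CPM values were 3.50, 4.11 and 3.32 in the controls and 3.60, 2.90 and 3.60 in the cKO mice. The genotypes overlapped, and no change was called (log2 fold change -0.11 ± 0.15, 95% interval -0.45 to 0.23, adjusted p = 0.687). The interval of Efna1 still allows a change of the size of the fold cut-off in the downward direction. The difference in Efna1 was 0.041 between the 14-week mice and -0.19 between the 12-week mice. The summed endothelial markers stood at 234 to 263 CPM in controls and 226 to 235 CPM in cKO mice, with 0 of 7 called by limma and 1 of 7 at an unadjusted p under 0.05.

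Efna4, at chr3:89137312-89141950 on the minus strand, encodes ephrin-A4, another ligand of EphA receptors. It had 7, 17 and 18 reads in the controls and 14, 3 and 16 reads in the cKO mice. These are 0.206, 0.344 and 0.349 CPM against 0.428, 0.155 and 0.296 CPM. No mouse reached 0.5 CPM, so Efna4 did not pass the filter. Fitted without the filter, its log2 fold change was -0.065 ± 0.30 (adjusted p = 0.925 by limma), so a difference of the size seen in Efna3 was not detectable at this depth. Of the 3 neighbors, Efna3 alone was called, although the difference between Efna3 and Efna1 was not tested.

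Efna2, at chr10:79642227-79652755 on the plus strand, encodes ephrin-A2, which acts with ephrin-A5 in mapping retinal axons. The controls had 4.76, 5.59 and 6.75 CPM and the cKO mice 6.75, 7.24 and 6.45 CPM of Efna2. The highest control lay within the range of the cKO mice. No change was called for Efna2 (log2 fold change 0.27 ± 0.14, 95% interval -0.056 to 0.59, adjusted p = 0.263). The difference was 0.49 between the 14-week mice and 0.15 between the 12-week mice.

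Efnb2 encodes ephrin-B2, a marker of arterial vessels that neurons and astrocytes make too, and lies at chr8:8617434-8661239 on the minus strand. It read 42.0, 40.2 and 39.4 CPM in the controls and 70.4, 65.0 and 71.1 CPM in the cKO mice. The cKO mice were all above the controls by far more than the spread within a genotype. Efnb2 rose by 0.76 ± 0.064 on the log2 scale (95% interval 0.62 to 0.91, adjusted p = 5.89e-05), or 1.70-fold in the means. The difference in Efnb2 was 0.74 between the 14-week mice and 0.77 between the 12-week mice. Of the 6 astrocyte markers, Aqp4 and Gfap were called as increased and Aldh1l1 as decreased, and their sum was 1324 to 1363 CPM in controls and 1321 to 1484 CPM in cKO mice. The part of these cells in the rise of Efnb2 was not tested, and none of the astrocyte or endothelial markers was at 0.

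Efnb3 encodes ephrin-B3, known for stopping axons at the midline and for synapses on dendrites, and lies at chr11:69367594-69373707 on the minus strand. The controls had 68.7, 58.3 and 74.1 CPM and the cKO mice 80.5, 89.5 and 107 CPM of Efnb3. The genotypes did not overlap, but the mice within each differed more than for Efnb2. Efnb3 rose by 0.46 ± 0.12 on the log2 scale (95% interval 0.20 to 0.72, adjusted p = 0.0251). This call was lost when any of 4 mice was left out, with adjusted p = 0.0571 without control replicate 1, 0.0839 without control replicate 2, 0.0568 without Mef2c cKO replicate 2 and 0.0680 without Mef2c cKO replicate 3. The difference in Efnb3 was 0.23 between the 14-week mice and 0.57 between the 12-week mice.

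Genes of myelin also differed between the mice. Summed over the 6 oligodendrocyte markers, they gave 4247, 3036 and 4977 CPM in the controls and 4937, 6242 and 6322 CPM in the cKO mice. The control lowest in Efnb3, replicate 2, was also lowest in these markers, and Mef2c cKO replicate 1 was the lowest cKO mouse in both. Of the 6 markers, Cldn11 and Mobp were called as increased, and none was at 0 in any mouse. Their part in the Efnb3 result was not tested.

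Efnb1, on the X chromosome at chrX:96331469-96344330, plus strand, encodes ephrin-B1, whose loss disturbs the growth of the skull and face. It read 13.1, 12.2 and 12.9 CPM in the controls and 16.0, 14.3 and 18.3 CPM in the cKO mice. All cKO mice were above all controls, yet no change was called (log2 fold change 0.34 ± 0.11, 95% interval 0.10 to 0.57, adjusted p = 0.0603). Without Mef2c cKO replicate 2 the adjusted p was 0.0319. That mouse had the fewest reads of all and 154 CPM of striatal marker reads, summed over 6 genes. The other cKO mice had 334 and 290 CPM of these, above every control (166 to 236 CPM). The difference in Efnb1 was 0.28 between the 14-week mice and 0.36 between the 12-week mice.

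**Figure D2:**
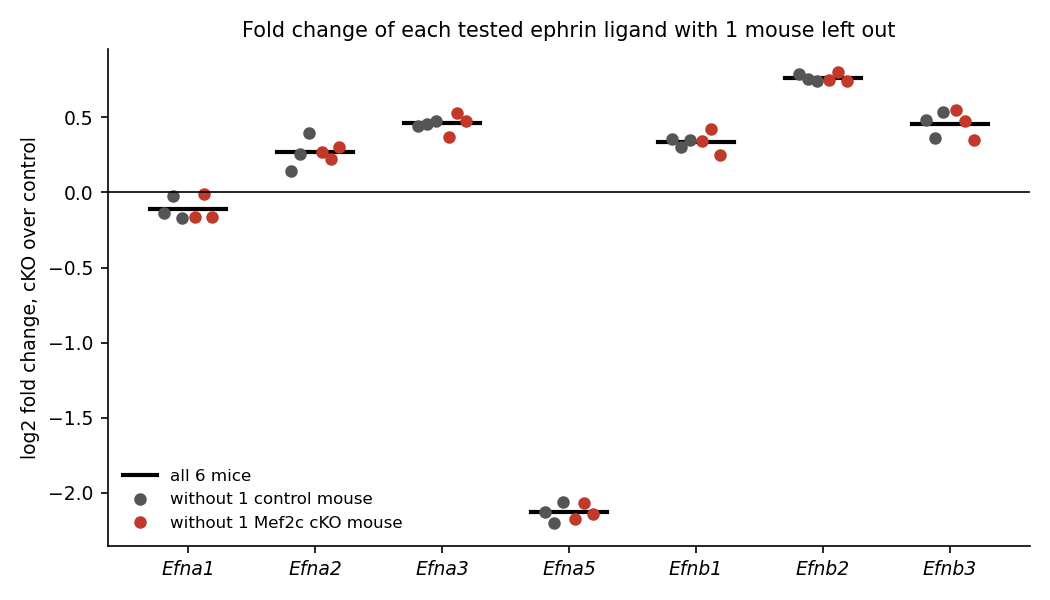
Log2 fold change of the 7 tested ligands (vertical axis, cKO over control) with all 6 mice (black line) and with 1 control (grey points) or 1 Mef2c cKO mouse (red points) left out. Efna5 stays between -2.20 and -2.06 and Efnb2 between 0.74 and 0.80, while Efnb3 runs from 0.35 to 0.55.

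Promoter sequences were taken for the ligands that moved most clearly, as the DNA just before Efna5, which fell, and Efna3 and Efnb2, which rose. RefSeq (GRCm38.p6) holds 9 promoters for 7 of the 8 ligands, each 250 bases before to 50 bases after the start, with Efnb3 not among them. The 250 bases before the start are shown for Efna5, Efna3 (1 of its 2 promoters) and Efnb2, 5′ to 3′ on the strand of the gene, with capitals marking GC boxes (GGGCGG, on either strand).
Efna5, chr17:62881318-62881567, minus strand: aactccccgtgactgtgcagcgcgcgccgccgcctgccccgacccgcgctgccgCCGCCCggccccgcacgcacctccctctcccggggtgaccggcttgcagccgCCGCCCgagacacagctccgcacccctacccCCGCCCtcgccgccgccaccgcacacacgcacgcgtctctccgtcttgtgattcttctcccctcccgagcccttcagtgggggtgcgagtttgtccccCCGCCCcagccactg
Efna3, chr3:89322940-89323189, minus strand: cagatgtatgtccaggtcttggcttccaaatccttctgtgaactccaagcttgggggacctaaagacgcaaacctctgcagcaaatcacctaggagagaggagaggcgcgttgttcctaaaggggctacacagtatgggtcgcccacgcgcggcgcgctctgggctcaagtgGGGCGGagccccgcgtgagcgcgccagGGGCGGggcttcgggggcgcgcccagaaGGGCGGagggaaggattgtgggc
Efnb2, chr8:8661243-8661492, minus strand: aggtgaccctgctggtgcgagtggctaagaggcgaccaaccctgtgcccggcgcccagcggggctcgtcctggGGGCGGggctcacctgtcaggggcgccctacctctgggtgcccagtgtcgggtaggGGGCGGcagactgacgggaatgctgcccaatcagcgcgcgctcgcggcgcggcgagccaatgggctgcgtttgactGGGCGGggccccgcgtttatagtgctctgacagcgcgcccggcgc
The GC box was present in 7 of the 9 ephrin promoters and in 35.7% of all 32851 promoters in the table. Efna5 held 4 boxes, Efnb2 3 and Efna3 3 in the stretch shown, so Efna5, which fell, shares this feature with 2 that rose. Of the ligands not called, Efna1 (2 and 1 in its 2 promoters) and Efna2 (2) held it too. Efna4 and Efnb1 had 0 boxes. Guanine and cytosine made up 73.3% of the Efna5 window, 72.3% of that of Efnb2 and 64.0% of that of Efna3, with a median of 52.7% over all promoters. The MEF2 consensus element was in 0 of the 9 promoters and in 0.557% of all. Its looser form, which contains the consensus, was in 0 of 9 and in 3.19% of all. These letters say nothing of sites further away. CCAAT was found in 4 of the 9 promoters and in 37.4% of all. The GC box and CCAAT were added to the search after the values had been seen.

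To compare the ligands with each other, CPM values were divided by the length of exons of each gene in GENCODE, in kilobases. In controls Efnb3 was highest by this level per length, at 21.1 ± 2.52 (SD, n = 3). Efna5 followed at 17.5 ± 1.71, Efna3 at 12.3 ± 0.330 and Efnb2 at 8.46 ± 0.273. Efnb1 stood at 3.69 ± 0.145, Efna2 at 2.68 ± 0.469, Efna1 at 1.99 ± 0.227 and Efna4 at 0.187 ± 0.0509. The neighbors Efnb3 and Efna5 overlapped over the control mice, as did Efna2 and Efna1, and the other neighbors did not.

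In the cKO mice Efnb3 was again highest per length, at 29.0 ± 4.17, followed by Efna3 at 17.0 ± 2.01 and Efnb2 at 14.4 ± 0.691. Efna5 stood at 3.98 ± 0.293, below Efnb1 at 4.69 ± 0.570, and these overlapped over the mice. Efna2 was at 3.20 ± 0.189, Efna1 at 1.84 ± 0.223 and Efna4 at 0.183 ± 0.0852. Efna5 thus went from the second place among the ligands to the fifth.

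**Figure D3:**
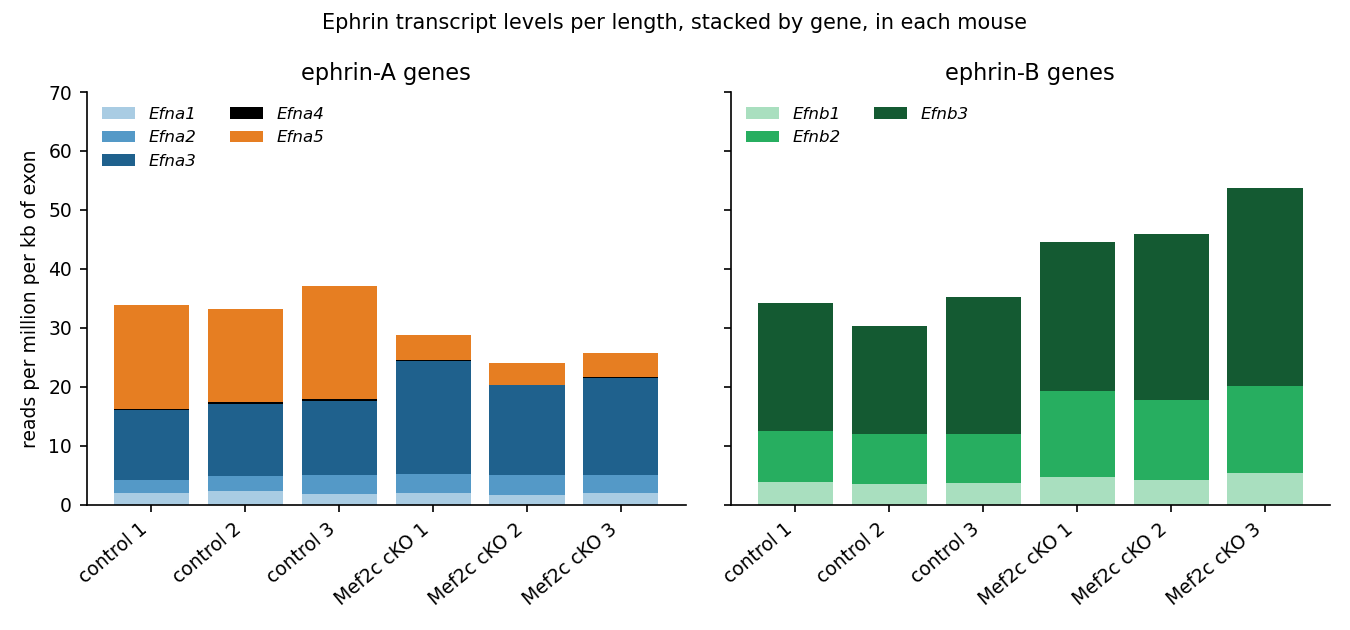
CPM per kilobase of exon (vertical axis, from 0), stacked by gene, for the 5 ephrin-A genes (left) and the 3 ephrin-B genes (right) in each of the 6 mice. The Efna5 share of the ephrin-A bars is 47.6% to 51.9% in controls and 14.7% to 15.8% in cKO mice, and the ephrin-B bars are taller in every cKO mouse.

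The make-up of the ephrin-A transcripts differed with this. Per length, Efna5 made up 51.9%, 47.6% and 51.8% of the ephrin-A level in the controls and 14.7%, 15.2% and 15.8% in the cKO mice. Efna3 made up 35.4%, 37.1% and 34.1% in the controls and 66.6%, 63.6% and 64.1% in the cKO mice. The ephrin-A level summed over 5 genes was 34.7 ± 2.09 in controls and 26.2 ± 2.44 in cKO mice, and that of ephrin-B over 3 genes 33.2 ± 2.63 and 48.0 ± 4.89 (SD, n = 3). Without the length, the summed ephrin-A reads in cKO mice were 0.616 of those in controls, and the summed ephrin-B reads 1.47 of them. The ratio of ephrin-A to ephrin-B per length was 0.990, 1.10 and 1.05 in the controls and 0.646, 0.524 and 0.480 in the cKO mice. The sums were not tested, since they are scores over the chosen members.

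The share of Efnb2, Efnb3 and Efnb1 within the ephrin-B level moved less. Efnb3 made up 63.3 ± 2.75% in controls and 60.2 ± 3.06% in cKO mice, and Efnb2 25.6 ± 2.23% and 30.1 ± 2.65% (SD, n = 3).

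The receptors that read these ligands were examined next. Of 14 Eph receptors listed, 13 were tested, 5 were called as increased and 2 as decreased, beside 5.88% and 7.77% of all tested genes. The median log2 fold change of the 13 was 0.10, beside 0.0077 over all tested genes. Epha3, Epha5, Epha6 and Epha7, receptors of ephrin-A ligands, rose. Epha3 went from 5.86 ± 0.860 to 14.4 ± 3.02 CPM (log2 fold change 1.27 ± 0.17, adjusted p = 0.000961) and Epha6 from 31.2 ± 4.02 to 65.2 ± 5.75 CPM (1.07 ± 0.10, adjusted p = 0.000142). Epha7 went from 74.1 ± 3.90 to 133 ± 5.84 CPM (0.85 ± 0.062, adjusted p = 2.59e-05) and Epha5 from 127 ± 4.62 to 184 ± 14.8 CPM (0.53 ± 0.069, adjusted p = 0.000685).

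Epha8 and Epha10, the latter a receptor without kinase activity, fell. Epha8 went from 8.27 ± 2.28 to 3.63 ± 1.46 CPM (-1.20 ± 0.29, adjusted p = 0.0204), and Epha10 from 8.70 ± 0.486 to 6.43 ± 0.960 CPM (-0.44 ± 0.13, adjusted p = 0.0496). The Epha10 call was lost without control replicate 1, 2 or 3 and without Mef2c cKO replicate 1 or 3 (adjusted p from 0.0877 to 0.152). That of Epha8 was lost without control replicate 2 or 3 and without Mef2c cKO replicate 1 or 2 (adjusted p = 0.0747, 0.0764, 0.0620 and 0.0563). Epha4, which binds ephrins of both classes, stood at 255 ± 9.81 CPM in controls and 270 ± 10.5 CPM in cKO mice and was not called (0.087 ± 0.057, 95% interval -0.041 to 0.22, adjusted p = 0.360).

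Of the receptors of ephrin-B, Ephb3 rose from 37.2 ± 2.78 to 49.4 ± 3.78 CPM (log2 fold change 0.41 ± 0.082, adjusted p = 0.00858). Ephb6, which lacks kinase activity, stood at 191 ± 6.94 CPM in controls and 165 ± 8.64 CPM in cKO mice. Its adjusted p was 0.0414, but its log2 fold change of -0.21 ± 0.060 was within the fold cut-off. Ephb1 stood at 53.6 ± 2.98 and 57.3 ± 2.19 CPM (95% interval of the log2 fold change -0.052 to 0.25), and Ephb2 at 35.2 ± 3.0 and 33.7 ± 3.94 CPM (-0.29 to 0.16). Neither Ephb1 nor Ephb2 was called by limma.

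**Figure D4:**
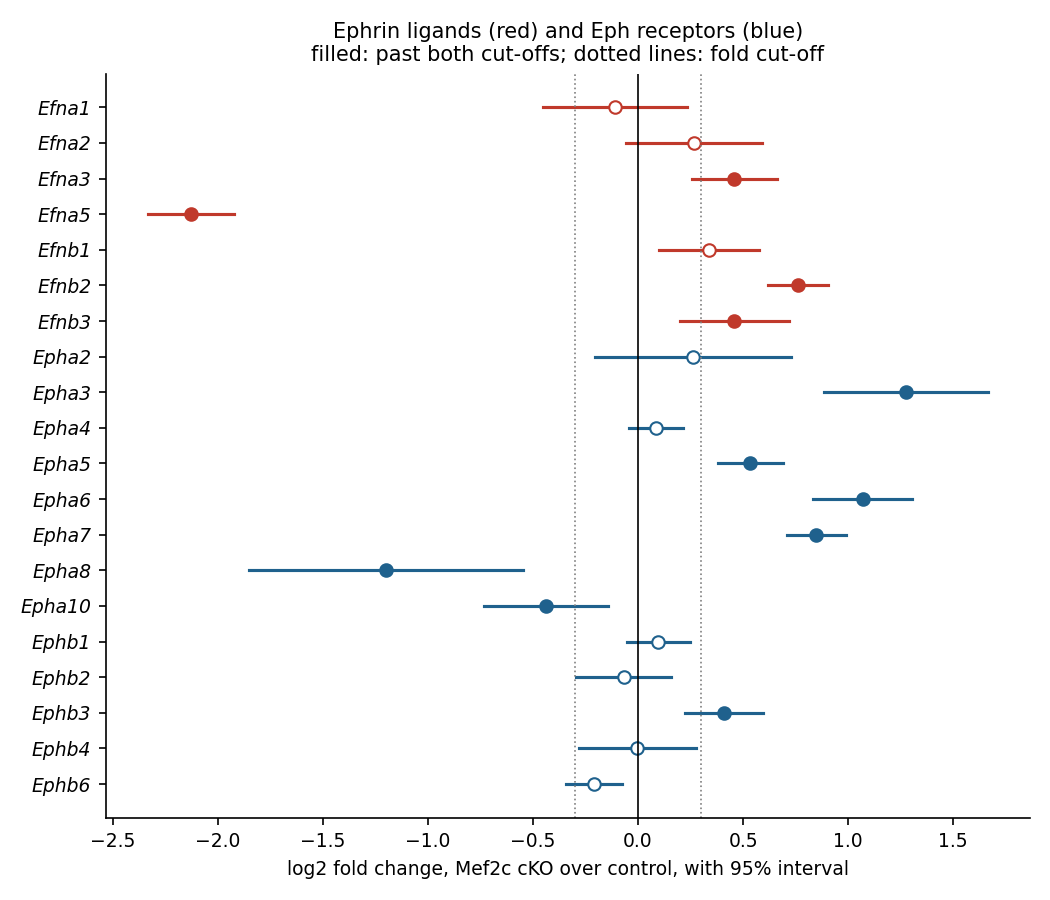
Log2 fold change (horizontal axis, cKO over control) with its 95% interval for the 7 tested ephrin ligands (red) and the 13 tested Eph receptors (blue), with filled points for the called genes and dotted lines at the fold cut-off of 0.3. Efna5 stands at -2.13, and Epha3, Epha5, Epha6 and Epha7 lie to the right of 0.3.

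Set against each other per length, ligands and receptors gave a ratio of ephrin-A to EphA of 0.477, 0.473 and 0.524 in the controls and 0.315, 0.273 and 0.271 in the cKO mice. The ratio of ephrin-B to EphB was 0.496, 0.460 and 0.493 in the controls and 0.709, 0.682 and 0.858 in the cKO mice. Both ratios kept the genotypes apart, in opposite directions, and were not tested. The EphA level was 70.5 ± 0.446 in controls and 91.4 ± 3.57 in cKO mice (SD, n = 3). That of EphB was 68.7 ± 2.86 and 64.2 ± 2.59. Single genes made up most of each receptor sum. In controls Epha4 held 57.0 ± 1.84% of the EphA level and Ephb6 73.7 ± 0.811% of the EphB level.

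Genes that carry the signal inside the cell were examined last. Of 34 partner genes, all tested, 3 were called, each as decreased with all 6 mice, beside 13.7% of all tested genes (7.77% as decreased). All 3 belong to the 22 genes of forward signaling. Without Mef2c cKO replicate 3, 5 partner genes were called, all as decreased, and without control replicate 3 there were 4, of which 3 were decreased and 1 was increased. Tiam1, an activator of the GTPase Rac, went from 137 ± 6.22 to 90.8 ± 8.02 CPM (log2 fold change -0.60 ± 0.073, adjusted p = 0.000500). Kalrn, which activates Rac in dendritic spines, went from 963 ± 46.8 to 771 ± 55.4 CPM (-0.32 ± 0.071, adjusted p = 0.0131). Sipa1l1, a regulator of the GTPase Rap at synapses, went from 418 ± 3.21 to 335 ± 12.9 CPM (-0.32 ± 0.053, adjusted p = 0.00316). None of the 8 genes of reverse signaling and none of the 4 of shedding and cleavage passed both cut-offs in the limma fit, while 2 of the 8 and 1 of the 4 had an unadjusted p under 0.05. The values of Kalrn and Sipa1l1 lie close to the fold cut-off, and leaving out control replicate 3 or Mef2c cKO replicate 1 for Kalrn (-0.29 both times), or Mef2c cKO replicate 2 for Sipa1l1 (-0.29), took each inside it.

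For each called ligand, the 2 genes whose log2 values over the 6 mice lay closest to it were found among 10338 genes. The measure of likeness was the root mean square distance after centering over all 6 mice of both genotypes. A like difference between the genotypes thus brings genes close by itself, and the matches were not tested. Closest to Efna5 were Cdh6, a cadherin, at a distance of 0.13, and Exph5, at 0.15. Closest to Efna3 were Tubb4b, a tubulin, at 0.039, and St3gal1 at 0.056. Aqp4, the water channel of astrocytes, at 0.047, and Arhgap25 at 0.050 lay closest to Efnb2. Cd9 at 0.054 and Tmem98 at 0.060 lay closest to Efnb3, though Tmem98 itself was not called (adjusted p = 0.0838 by limma). Cdh6 read 27.4 ± 0.727 CPM in controls and 6.08 ± 1.10 CPM in cKO mice, and Aqp4 83.8 ± 2.09 and 139 ± 4.61 CPM (SD, n = 3).

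The deposited RPKM values of the same genes looked otherwise. For Efna5 they were 2.23, 48.0 and 0.382 RPKM in the controls and 1.22, 0.636 and 2.95 RPKM in the cKO mice. The lengths by which the reads of Efna5 had been divided were 31735, 1326 and 202453 bases in the controls and 13968, 23203 and 5543 bases in the cKO mice. The highest control was 125 times the lowest in RPKM, but 1.22 times in CPM. For Efnb2 the values were 1.71, 2.19 and 15.4 RPKM in the controls and 0.568, 3.99 and 3.09 RPKM in the cKO mice, and over the 8 ligands the highest control was 5.90 to 125 times the lowest in RPKM, against 1.06 to 1.70 times in CPM. For this reason all values above rest on the recovered reads.

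**Figure D5:**
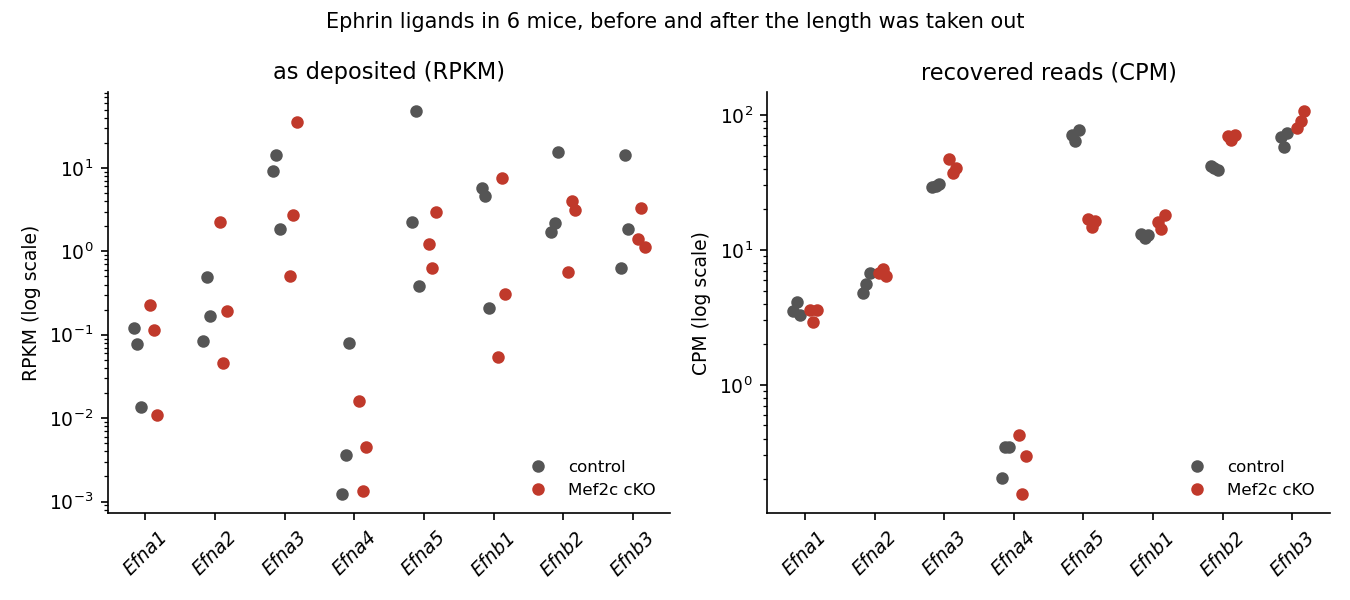
The 8 ephrin ligands in 3 control (grey) and 3 Mef2c cKO mice (red) as deposited, in RPKM (left, log axis), and as CPM from the recovered reads (right, log axis). The control values of Efna5 run from 0.382 to 48.0 RPKM on the left and from 63.6 to 77.4 CPM on the right.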

How the data were processed

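RNA of 3 control and 3 Mef2c cKO cortices was sequenced, aligned to mm9 with TopHat and Bowtie and counted on genes with HTSeq by the authors, who deposited RPKM values, 1 table per mouse. Versions are not given in the sources used here. In each table the reads had been divided by a short list of lengths (65 to 296) repeated along the genes in the order of their Entrez numbers as text. With this order, 99.7% to 99.8% of placed values came out as whole reads, and recovered reads made up 99.93% to 99.98% of each total. This was found after seeing the data. The ligand, receptor and partner reads all came from their own place in the list. The 92 nameless rows of each mouse were not used, and 0.0797% to 0.122% of the total fell outside named genes. Reads were divided by the total (CPM), and log2(CPM + 0.1) was fitted on genotype by limma (version 3.58.1 on R 4.3.3, eBayes with a variance trend), for genes above 0.5 CPM in every mouse of at least 1 genotype with at least 2 counts in each. Fold changes on this scale understate those of low genes. P-values were adjusted by Benjamini-Hochberg over all tested genes. Counts at an unadjusted p under 0.05 are given without the share of all tested genes at that p, so they are only a description. Recovery and fit were tested on simulated data. Genes named are the 8 ligands, receptors and partners that were called, other receptors of at least 10 CPM, Mef2c and Emx1, the 2 closest genes of each called ligand, and markers where a result touches them. Members and lists were chosen with earlier results of these data known. Coordinates and exon lengths are from GENCODE vM1 (mm9), which is not the authors' annotation. Python 3.11.15, numpy 2.4.6, pandas 2.3.3 and matplotlib 3.10.9 were used. Alternatives covered pseudocount, filter, scaling, replicate block, age, mice left out, variance trend, weights, fold cut-off and the deposited values.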

Additional observations from a re-analysis of the deposited data

How the results depend on the processing

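With the deposited RPKM values in place of the recovered reads, 0 ligands, 0 receptors, 0 partner genes and 14 genes in all were called. Fold changes then turned for Efna3 (-0.70), Efnb2 (-0.96), Efnb3 (-0.58), Epha4 (-0.51), Epha5 (-1.67), Epha7 (-0.12), Ephb1 (-0.85), Ephb2 (2.29), Kalrn (0.55) and Sipa1l1 (1.12), where reads are divided by other lengths in each mouse. A fold cut-off of 1 left 1 ligand (Efna5), 3 receptors, 0 partner genes and 471 genes in all. With the other settings 3 to 5 ligands, 5 to 7 receptors and 2 to 5 partner genes were called. The lowest and highest counts with 1 mouse left out were 3 and 4 ligands, 5 and 6 receptors, 2 and 5 partner genes (5 without Mef2c cKO replicate 3), and 1661 and 1870 genes in all. With 1 mouse left out the summed ephrin-A ratio ran from 0.586 to 0.642 and the ephrin-B ratio from 1.40 to 1.52, and in the 12-week mice alone they were 0.581 and 1.54. Ephb2, not called, ran from -0.14 (without Mef2c cKO replicate 2) to above 0, at 0.0016 without control replicate 3 and 0.030 without Mef2c cKO replicate 3. Without a variance trend Efnb3 (adjusted p = 0.0760), Epha8 and Epha10 (0.0582 each) were lost, which left 0 decreased receptors. Epha10 was also lost with no filter on low values (adjusted p = 0.0750), and Efnb1 was called with voom weights (0.38, adjusted p = 0.0334). In the 12-week mice alone 4 ligands were called, and Epha10, Ephb3 and Kalrn were not (adjusted p = 0.147, 0.0911 and 0.0671). Mice of like replicate number did not deviate alike from their group means (correlations of deviations -0.19, -0.13 and -0.11). Pairs of unlike number are not given beside these, and replicate 1 was 14 weeks old in both genotypes, so a pairing is not settled. With the replicate block 4 ligands, 6 receptors, 3 partner genes and 1694 genes were called, without Epha10 (adjusted p = 0.103). Pseudocounts of 0.5 and 1, median-of-ratios scaling and the filters left the count of called ligands at 4. Genes of few reads, such as Efna4, are limited by depth.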

Other observations

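The lists of cell type markers held values that belong to no ligand. Among the pyramidal neuron markers, Neurod6 and Tbr1 were called as increased. Of the 8 upper layer markers, 5 were called as decreased and 2 (Pou3f3, Mdga1) as increased, and of the 7 deep layer markers 2 (Fezf2, Etv1) as decreased. Among the 6 interneuron markers Pvalb was called as decreased and Sst as increased. Of the 4 thalamic markers Slc17a6 was called as decreased and Prkcd as increased, and of the 6 striatal markers in the tables Penk was called as increased. In the limma fit 0 of the 2 oligodendrocyte precursor, 0 of the 6 microglial, 0 of the 5 pericyte and smooth muscle and 0 of the 2 tested choroid plexus markers passed both cut-offs. At an unadjusted p under 0.05 the counts were 0, 3, 2 and 1. Control replicate 3 held 29.6 CPM of choroid plexus markers, against 8.14 to 10.2 CPM in the other mice.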
